A study of Mus musculus with 20 samples.

Results

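The genes described here encode the membrane transporters that carry bile acids, drugs, sterols and other organic solutes across liver cell membranes, together with their close relatives. They are the protein-coding genes of the ATP-binding cassette families Abca to Abcg, the organic anion transporting polypeptides (Slco), the sodium-dependent bile acid carriers (Slc10a) and the organic cation and anion carriers (Slc22a). The members were chosen by gene symbol, with earlier results of these data known, which gave 97 of the 37310 annotated genes. They comprise 50 Abc genes (16 Abca, 10 Abcb, 10 Abcc, 4 Abcd, 1 Abce, 3 Abcf and 6 Abcg), 7 Slc10a, 25 Slc22a and 15 Slco genes. At least 1 read was counted for 90 of them, and 72 passed the filter on low counts and were tested. Of the 25 that were not tested, 7 had no count in any fetus (Abca12, Abca15, Abca16, Abcb5, Slc22a22, Slco6b1 and Slco6d1) and the other 18 had 1 to 53 counts over all fetuses. The lowest tested member was Slc22a26, with 107 counts in all.

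Polyadenylated RNA was prepared from the right lobe of the liver at embryonic day 18.5, close to term, in 20 male CD-1 IGS mice, an outbred strain. Of the fetuses, 10 came from dams under maternal nutrient restriction (MNR) and 10 from control dams, with 5 litters per group and 2 littermates per litter. The labels give neither the composition nor the timing of the diet. Litters are lettered A to E in each group, and an MNR litter and a control litter of the same letter come from different dams. Diet acts through the dam, so the litter is the replicate, and the counts of littermates were added before testing. Liver is a mixed tissue in which fewer cells of a type and less RNA per cell cannot be told apart.

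Bile acids, bilirubin conjugates, phospholipid and cholesterol leave the hepatocyte through ATP-driven pumps in the canalicular membrane, which faces the bile. Carriers in the sinusoidal membrane, which faces the blood, take bile acids, hormones and drugs up, and a further set of pumps returns solutes to the blood when bile flow is poor. In late gestation the placenta still clears much of what the liver clears after birth, and many of these genes are still increasing towards their adult levels in rodents.

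Total counts per fetus lay between 16703824 and 28016953 in MNR and between 14925778 and 27848100 in control fetuses. The markers bore out the tissue label, since 10 hepatocyte genes summed to 171624 to 205940 CPM (counts scaled to the size of the library) in MNR litters and 184050 to 212962 CPM in control litters. Transcripts of red cells or their precursors were plainly present, with 10 erythroid genes at 22671.6 to 30492.3 CPM in MNR litters and 21919.3 to 34781.4 CPM in control litters. Most of that sum came from the globin genes Hbb-b1 (means 12774.5 CPM in MNR and 13776.1 CPM in control litters) and Hba-a1 (10983.5 and 11776.4 CPM). Transcripts of 6 pancreatic enzymes summed to 117 CPM in the first fetus of MNR litter B, 85.0 CPM in that of MNR litter E and 283 CPM in that of control litter B, against at most 33.2 CPM in any other fetus, and the count of transporter genes past the threshold was also 0 without these 3 fetuses. Unless stated otherwise, values are CPM per litter, means carry the SD over 5 litters, and p-values are those of edgeR (quasi-likelihood), adjusted by Benjamini and Hochberg's method over the 17573 genes tested.

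None of the 72 tested transporter genes passed an adjusted p of 0.05 between MNR and control litters. Over all genes 0.666% passed, 0.415% higher and 0.250% lower in MNR. At an unadjusted p under 0.05 there were 15 transporter genes, 20.8% of those tested, against 19.6% of all genes, so the share was close to the background. Of the 15 genes, 8 were higher in MNR (11.1%, against 9.95% of all genes) and 7 lower (9.72%, against 9.69%). These shares of all genes are also the background for the counts at that p given for each list. The median log2 fold change of the 72 genes was 0.001, beside -0.003 over all genes, with 37 above 0 and 35 below. The 5 MNR and 5 control litters did not overlap for 5 members, 6.94% of those tested, against 4.50% of all genes. With higher values in MNR these were Slco4c1, Abca13 and Abcc1 (4.17%, against 2.28% of all genes), and with lower values Slc22a17 and Abca2 (2.78%, against 2.23%). The count of 0 is that of edgeR's test. DESeq2 called 6 of 72 members (Abca13, Abca2, Abcd4, Slc10a3, Slc22a17 and Slco4c1), beside 1163 of all 17573 genes. These totals include some members of low count to which DESeq2 gave no adjusted p, Slc10a6 and Slc22a7 among them. With limma-voom on single fetuses and the litter as a random effect, 5 of 67 members were called (Abcc1, Abcf2, Slc10a3, Slc22a17 and Slco4c1), beside 1088 of all 16136 genes. A p above the threshold does not show equal levels, and over the 72 genes the 95% intervals of the fold change reached down to 0.266 and up to 8.86.

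**Figure D1:**
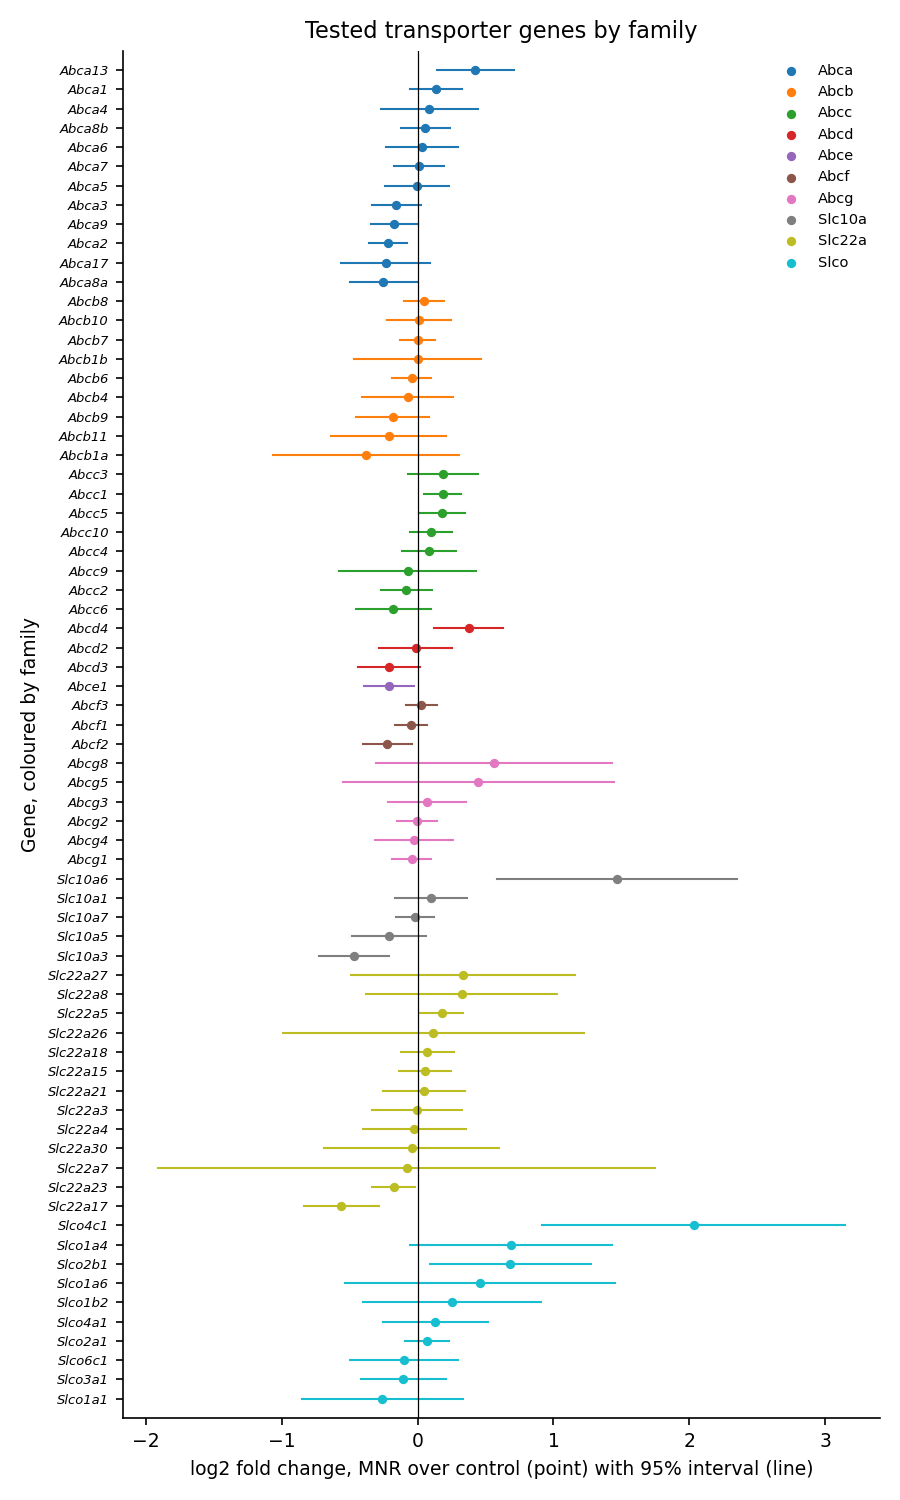
Each point is the log2 fold change of 1 of 70 of the 72 tested transporter genes, MNR over control, on the horizontal axis, and each line is its 95% interval from edgeR (5 litters per group). Genes run down the vertical axis, ordered and coloured by family. The points spread to both sides of 0, and Slco4c1 lies farthest from 0, at 2.03.

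The pumps and carriers of hepatocytes were the most abundant members when levels were divided by exon length. Slc10a1 (NTCP), which takes conjugated bile acids up from the blood with sodium, had 250.0 CPM per kb in MNR litters and 234 in control litters. Abcb11, the bile salt export pump of the canalicular membrane, had 90.0 CPM per kb in MNR litters and 104 in control litters, and Slco1b2, an uptake carrier for bile acids, bilirubin and many drugs, had 66.7 CPM per kb in MNR litters and 55.9 in control litters. Next came Abca8b with a mean of 59.7 CPM per kb over both groups, and Abcb4, the pump that moves phosphatidylcholine into bile, with 47.9. Abcb10, a mitochondrial transporter needed for heme synthesis in red cell precursors, followed at 41.2 CPM per kb. In all, 20 members lay above 10 CPM per kb and 22 of the 72 below 1. The median level of the tested members was 2.97 CPM per kb, against 4.10 over 14797 tested protein-coding genes.

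**Figure D2:**
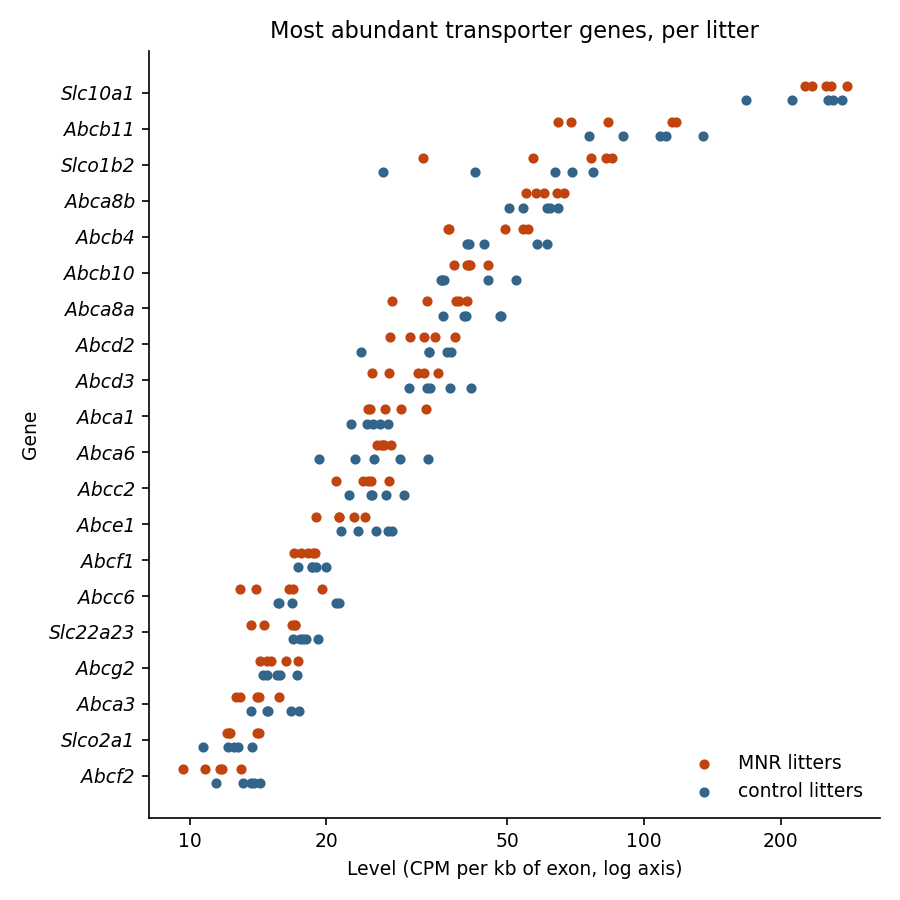
Levels in CPM per kb of exon (horizontal log axis) are shown for the 20 transporter genes whose mean exceeded 10, listed down the vertical axis. Each point is a litter, with MNR litters above control litters in each row. Slc10a1 is highest, at a mean of 242 CPM per kb, and the litters of the groups overlap in every row.

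Uptake of bile acids is described first, because its main carrier was the most abundant member. Slc10a1 had 398, 357, 408, 369.9 and 441 CPM in MNR litters A to E, against 334, 432, 402, 265 and 411 CPM in control litters A to E. Its log2 fold change was 0.10 (SE 0.12, adjusted p = 0.698), and the 95% interval of the fold change was 0.890 to 1.29. The groups overlapped, and the lowest litter was control D. Slco1b2 varied more, with 377, 161, 407, 281 and 419.7 CPM in MNR litters A to E and 209, 343, 379.9, 132 and 315 CPM in control litters A to E. MNR litter B and control litters A and D were low, and the log2 fold change of 0.26 (SE 0.30, adjusted p = 0.68) lay within that spread.

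The other uptake carriers of the adult liver had low levels at this age. Slco1a1, which takes up bile acids, steroid conjugates and other organic anions, averaged 8.43 ± 1.72 CPM in MNR and 10.1 ± 4.44 CPM in control litters (log2 fold change -0.26, SE 0.27, adjusted p = 0.634). Slco1a4, a related carrier of bile acids and digoxin, averaged 0.973 ± 0.366 CPM in MNR and 0.616 ± 0.245 CPM in control litters (log2 fold change 0.69, SE 0.34, adjusted p = 0.29). Slco2b1, a carrier of steroid sulfates and drugs, had 2.23, 1.41, 2.69, 1.93 and 3.38 CPM in MNR litters and 1.20, 1.37, 2.42, 0.973 and 1.31 CPM in control litters. The log2 fold change of 0.68 (SE 0.27) did not pass after adjustment (p = 0.0272, adjusted p = 0.196). Control litter C, at 2.42 CPM, lay inside the MNR range while the other control litters lay below the lowest MNR litter, at 1.41 CPM. Of the 7 sinusoidal uptake carriers listed, all were tested, 0 passed, 1 was higher at an unadjusted p under 0.05 (Slco2b1) and none was lower.

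Slc22a7 (OAT2), which carries organic anions, belongs to that list and was a rare transcript. Slc22a7 had 0.0496, 0.892, 0.992, 0.252 and 0.182 CPM in MNR litters and 0, 1.37, 0.0706, 0.477 and 0.666 CPM in control litters. Its spread between litters was the largest among the tested members. Both fetuses of control litter A had no Slc22a7 count, and the 95% interval of its fold change ran from 0.266 to 3.36.

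Export across the canalicular membrane showed no difference past the threshold for any of its 8 listed pumps, and none reached an unadjusted p under 0.05. Abcb11 had 349, 327, 582, 420.4 and 593 CPM in MNR litters A to E and 455, 679.6, 546, 382 and 566 CPM in control litters A to E. Its log2 fold change was -0.21 (SE 0.19, adjusted p = 0.585), with a 95% interval of 0.645 to 1.16 for the fold. The groups overlapped over most of their range. Littermates could differ widely, since the fetuses of control litter D had 183 and 650.2 CPM.

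Abcb4 averaged 192 ± 37.0 CPM in MNR and 201 ± 40.1 CPM in control litters (log2 fold change -0.07, SE 0.15, adjusted p = 0.836). Abcc2 (MRP2), the exporter of bilirubin glucuronides and other conjugates, averaged 140.3 ± 13.3 CPM in MNR and 149 ± 15.4 CPM in control litters (log2 fold change -0.08, SE 0.09, adjusted p = 0.634). Its 95% interval of the fold, 0.829 to 1.08, was narrower than that of Abcb11. Abcg2 (BCRP), a pump for drugs, urate and porphyrins that red cell precursors also express, averaged 77.5 ± 6.02 CPM in MNR and 77.7 ± 5.23 CPM in control litters (log2 fold change -0.00, SE 0.07, adjusted p = 0.984). Abcb1a and Abcb1b, the mouse genes for the drug pump P-glycoprotein, averaged 12.7 ± 4.56 CPM and 2.79 ± 0.840 CPM in MNR litters, against 16.5 ± 7.34 CPM and 2.80 ± 0.641 CPM in control litters. Their log2 fold changes were -0.38 (SE 0.31, adjusted p = 0.546) and 0.00 (SE 0.22, adjusted p = 0.999). The coding sequences of these neighbours hold an identical stretch of 338 bases, and 17.0% of the 50-base words of Abcb1a and 18.1% of those of Abcb1b occur elsewhere among annotated transcripts, so the split of reads between them is uncertain.

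**Figure D3:**
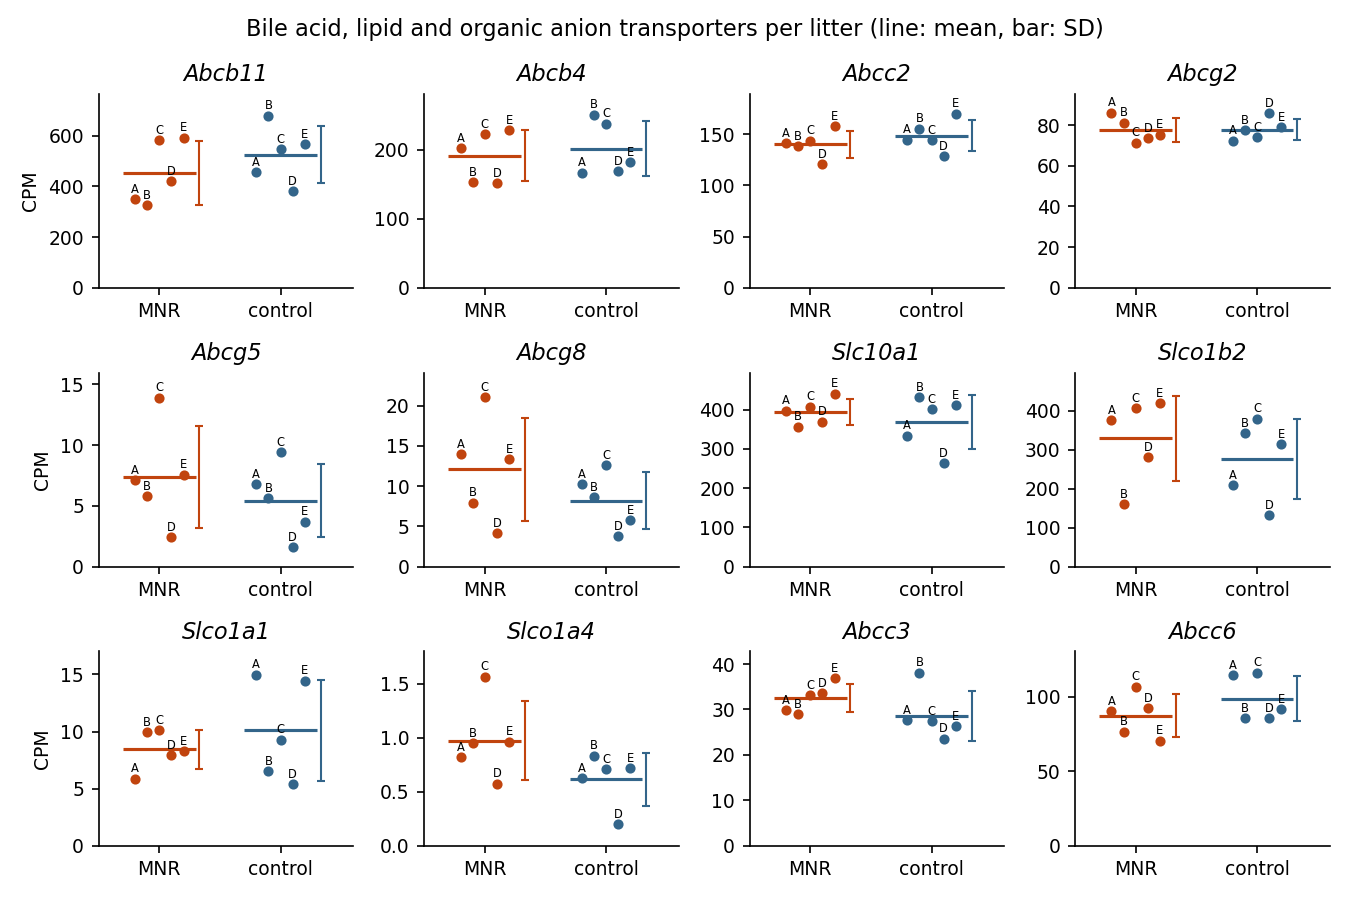
Litter values in CPM (vertical axes, starting at 0) are shown for 12 transporters of bile acids, lipids and organic anions, with MNR left of control. Letters name the litters, horizontal lines are means and bars are SD over 5 litters. The groups overlap in every panel, and litters C are high and litters D low in both groups for Abcg5 and Abcg8.

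The promoter windows of Abcb11 and Slco1b2 are shown because both match a loosened form of the repeat bound by the liver's bile acid sensor. That sensor, the farnesoid X receptor encoded by Nr1h4, binds inverted repeats with a spacer of a single base. A motif of AGGNCA followed, after 1 base of any kind, by TGACCT (N is any base) was searched on both strands of the RefSeq promoter windows, which run from 250 bases before to 50 bases after an annotated start (build GRCm38.p6). Windows were found for 78 of the 97 members (91 windows), and 2 members held a match. Over all genes 12 of 32851 windows did (0.0365%). Both members' matches differ from a perfect inverted repeat at the base that AGGNCA leaves free. The counts are therefore no measure of enrichment among the members. The match in Abcb11 lay 63 bases before the start and that in Slco1b2 88 bases before it, and capitals mark the match.
Abcb11 (chr2:69342567-69342866, minus strand): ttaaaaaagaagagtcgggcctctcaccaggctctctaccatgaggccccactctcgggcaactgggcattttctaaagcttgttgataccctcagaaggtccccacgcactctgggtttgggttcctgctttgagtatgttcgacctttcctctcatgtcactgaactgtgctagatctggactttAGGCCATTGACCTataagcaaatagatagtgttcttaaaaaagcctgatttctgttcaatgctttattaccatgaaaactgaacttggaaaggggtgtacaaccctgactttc
Slco1b2 (chr6:141629268-141629567, plus strand): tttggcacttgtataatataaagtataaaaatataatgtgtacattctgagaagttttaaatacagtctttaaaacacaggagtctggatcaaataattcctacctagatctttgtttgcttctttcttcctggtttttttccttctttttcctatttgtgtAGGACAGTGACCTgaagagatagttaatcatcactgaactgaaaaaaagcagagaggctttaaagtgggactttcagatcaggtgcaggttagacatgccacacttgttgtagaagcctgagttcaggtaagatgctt
A match describes letters and not binding. Neither gene passed the threshold, with log2 fold changes of -0.21 for Abcb11 and 0.26 for Slco1b2. Nr1h4 itself, named here outside the naming rule after its value was seen, averaged 72.1 ± 2.86 CPM in MNR and 63.8 ± 9.02 CPM in control litters (log2 fold change 0.18, SE 0.09, adjusted p = 0.291). Nr0b2 (SHP), a well-known target gene of that receptor and likewise named after its value was seen, averaged 6.58 ± 4.78 CPM in MNR and 13.5 ± 4.86 CPM in control litters with overlap (log2 fold change -1.02, SE 0.46, adjusted p = 0.244, unadjusted p = 0.0449).

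Abcg5 and Abcg8 encode the partner subunits of a heterodimer that exports cholesterol and plant sterols into bile, and they lie head to head on chromosome 17. In the annotation of the files' build (mm9) Abcg5 spans chr17:85057574-85082351 on the minus strand and Abcg8 chr17:85075642-85099673 on the plus strand, with exons that overlap on opposite strands. The use of strand in counting is not given, so reads from the overlap cannot be assigned to either gene with certainty. Their RefSeq starts lie 109 bases apart, and their promoter windows share 209 bases (GRCm38.p6), shown in capitals below as read along each gene's own strand.
Abcg5 (chr17:84682962-84683261, minus strand): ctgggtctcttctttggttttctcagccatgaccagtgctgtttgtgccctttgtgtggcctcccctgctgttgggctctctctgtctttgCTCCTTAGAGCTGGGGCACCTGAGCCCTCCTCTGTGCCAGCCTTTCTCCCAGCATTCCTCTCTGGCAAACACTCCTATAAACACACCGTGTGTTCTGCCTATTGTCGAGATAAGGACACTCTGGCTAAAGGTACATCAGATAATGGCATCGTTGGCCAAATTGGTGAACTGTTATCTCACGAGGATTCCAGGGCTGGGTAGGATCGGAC
Abcg8 (chr17:84682871-84683170, plus strand): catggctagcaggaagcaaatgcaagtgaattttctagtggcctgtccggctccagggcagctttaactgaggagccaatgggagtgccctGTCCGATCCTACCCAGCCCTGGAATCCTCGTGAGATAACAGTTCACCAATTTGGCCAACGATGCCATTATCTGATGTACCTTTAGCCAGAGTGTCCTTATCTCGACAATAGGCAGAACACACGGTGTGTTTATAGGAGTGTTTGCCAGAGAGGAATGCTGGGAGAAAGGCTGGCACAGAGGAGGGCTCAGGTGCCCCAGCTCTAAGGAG
Abcg5 had 7.15, 5.81, 13.9, 2.45 and 7.57 CPM in MNR litters A to E and 6.80, 5.61, 9.45, 1.61 and 3.71 CPM in control litters A to E. Abcg8 had 13.9, 7.95, 21.1, 4.17 and 13.3 CPM in MNR litters A to E and 10.3, 8.62, 12.6, 3.75 and 5.81 CPM in control litters A to E. For both genes litter C was the highest and litter D the lowest of its group, in MNR and in control alike, although litters of the same letter have different dams. The log2 fold change was 0.45 for Abcg5 (SE 0.46, adjusted p = 0.627) and 0.56 for Abcg8 (SE 0.40, adjusted p = 0.471). The 95% intervals of the fold, 0.682 to 2.72 and 0.808 to 2.69, both included 1.

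Next are the exporters that pass sterols to lipoproteins or handle them inside the cell. Abca1, which loads cholesterol and phospholipid onto apolipoprotein A-I, had 302, 343, 258, 279 and 256 CPM in MNR litters and 235, 255, 271, 262 and 284 CPM in control litters (log2 fold change 0.14, SE 0.09, adjusted p = 0.416). MNR litters A and B lay above every control litter and the other 3 within the control range. Abcg1, which passes cholesterol to high-density lipoprotein, averaged 17.9 ± 1.32 CPM in MNR and 18.4 ± 1.06 CPM in control litters (log2 fold change -0.04, SE 0.07, adjusted p = 0.769). Abca2, an endolysosomal sterol transporter best known from myelin-forming cells, had 16.7, 17.8, 18.9, 18.3 and 17.8 CPM in MNR litters and 23.1, 21.6, 20.2, 19.3 and 19.8 CPM in control litters. Its litters did not overlap, with MNR lower by a log2 fold change of -0.22 (SE 0.06), but the adjusted p of 0.0993 missed the threshold. Of the 10 sterol and phospholipid transporters listed, all were tested, 0 passed and 1, Abca2, had an unadjusted p under 0.05.

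Abca13, the member with the longest protein of its family, had 9.98, 15.7, 9.73, 9.56 and 10.6 CPM in MNR litters A to E and 8.33, 8.94, 8.02, 7.55 and 8.58 CPM in control litters A to E. The groups did not overlap, and MNR litter B stood apart from the other MNR litters. This gave a log2 fold change of 0.43 (SE 0.13, adjusted p = 0.114). Summed levels of 6 neutrophil precursor markers, per fetus and averaged over littermates, were also highest in MNR litter B, at 1881 CPM, against 1350.0 to 1445 CPM in the other MNR litters and 1206 to 1369 CPM in control litters. All 6 of these markers were tested and 0 passed, with 4 higher in MNR at an unadjusted p under 0.05 (9.95% of all genes), and their part in the Abca13 difference was not tested. Abca8b averaged 452 ± 35.6 CPM in MNR and 434 ± 44.2 CPM in control litters (log2 fold change 0.06, SE 0.08, adjusted p = 0.748). Its neighbour Abca8a, named for an unadjusted p under 0.05, averaged 226 ± 33.2 CPM in MNR and 269 ± 34.0 CPM in control litters (log2 fold change -0.25, SE 0.11, adjusted p = 0.253).

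Pumps of the basolateral membrane return solutes to the blood, and of the 6 tested basolateral exporters 4 had positive and 2 negative log2 fold changes, with a median of 0.13. Abcc1 (MRP1), an exporter of glutathione conjugates and leukotriene C4 found in many cell types, had 11.5, 10.5, 10.7, 10.8 and 11.3 CPM in MNR litters and 10.0, 10.2, 9.41, 9.89 and 8.69 CPM in control litters. Its litters did not overlap, and MNR was higher by a log2 fold change of 0.18 (SE 0.06, adjusted p = 0.138). Abcc5, an exporter of cyclic nucleotides, averaged 32.4 ± 3.28 CPM in MNR and 28.6 ± 2.18 CPM in control litters (log2 fold change 0.18, SE 0.08, adjusted p = 0.236). Abcc3 (MRP3), an exporter of glucuronides and bile acids that increases in cholestasis, averaged 32.5 ± 3.18 CPM in MNR and 28.6 ± 5.56 CPM in control litters (log2 fold change 0.19, SE 0.12, adjusted p = 0.414). Abcc4 (MRP4), which exports bile acids together with glutathione, averaged 7.29 ± 0.975 CPM in MNR and 6.90 ± 0.286 CPM in control litters (log2 fold change 0.08, SE 0.09, adjusted p = 0.659). Abcc6, a liver transporter needed for the release of ATP that protects soft tissue from calcification, averaged 87.2 ± 14.2 CPM in MNR and 98.7 ± 15.3 CPM in control litters (log2 fold change -0.18, SE 0.13, adjusted p = 0.468). Of the 7 basolateral exporters listed, 6 were tested, 0 passed, and 2 (Abcc1 and Abcc5) were higher at an unadjusted p under 0.05, against 9.95% of all genes. The non-member of the list that was tested, Slc51b, a subunit of a basolateral bile acid exporter, averaged 0.640 ± 0.382 CPM in MNR and 0.884 ± 0.311 CPM in control litters (log2 fold change -0.45, SE 0.41, adjusted p = 0.579).

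Slco4c1 had the largest fold change of all tested members, 4.09, with a 95% interval of 1.89 to 8.86. It encodes an organic anion carrier known chiefly from the basolateral membrane of kidney tubules, where it takes up digoxin, thyroid hormone and uremic solutes. It had 10.7, 11.0, 5.40, 4.45 and 37.0 CPM in MNR litters A to E, against 2.99, 3.84, 3.10, 2.68 and 4.16 CPM in control litters A to E. The lowest MNR litter, D, was above the highest control litter, E, and MNR litter E lay far above the rest. The log2 fold change of 2.03 (SE 0.51) missed the threshold, at an adjusted p of 0.0739.

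The fetuses of Slco4c1 did not overlap either, with 4.45 to 41.3 CPM in the 10 MNR fetuses and 2.57 to 4.19 CPM in the 10 control fetuses. It was the sole tested member of which this held, and over all genes the fetuses did not overlap for 0.182% with higher values in MNR. Both fetuses of MNR litter E were high, at 41.3 and 32.8 CPM. Without that litter the log2 fold change was 1.23 (adjusted p = 0.108). DESeq2, which called 1163 of 17573 genes against 117 for edgeR, gave a log2 fold change of 2.03 with an adjusted p of 0.00983. Over 23 fits in all, the adjusted p of Slco4c1 ran from 0.00983 to 0.312 and was under 0.05 in 4. All counts of the gene came from a single protein-coding transcript. Of 4 kidney and intestine markers tested out of 6 listed, 0 passed, and 2 had log2 fold changes above 0 and 2 below. Among them 1, Lrp2, was higher at an unadjusted p under 0.05. Lrp2 averaged 1.78 ± 0.458 CPM in MNR and 1.12 ± 0.175 CPM in control litters (log2 fold change 0.67, SE 0.18, adjusted p = 0.0896). The 6 markers, of which Fabp2 and Vil1 were the most abundant, summed to 6.66 to 9.80 CPM in MNR litters and 6.80 to 9.34 CPM in control litters. Averaged over littermates, their sum was lowest of all litters in MNR litter E, at 6.66 CPM, where Slco4c1 was highest. The part of these markers in the Slco4c1 values was not tested.

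In mm9 Slco4c1 spans chr1:98715361-98768748 on the minus strand. A long intergenic noncoding RNA, Gm5101, is annotated on the opposite strand with a start 49 bases away, and it was looked at after the Slco4c1 values were seen. Gm5101 had 7.60, 9.44, 6.48, 6.56 and 15.7 CPM in MNR litters A to E and 5.79, 5.34, 5.81, 5.72 and 6.35 CPM in control litters A to E. Its litters did not overlap either, MNR litter E was again the highest, and the log2 fold change was 0.65 (SE 0.22, adjusted p = 0.132). The promoter window of Slco4c1 is shown because the gene had the largest fold change, and capitals mark the bases from its RefSeq start on (GRCm38.p6).
Slco4c1 (chr1:96872122-96872421, minus strand): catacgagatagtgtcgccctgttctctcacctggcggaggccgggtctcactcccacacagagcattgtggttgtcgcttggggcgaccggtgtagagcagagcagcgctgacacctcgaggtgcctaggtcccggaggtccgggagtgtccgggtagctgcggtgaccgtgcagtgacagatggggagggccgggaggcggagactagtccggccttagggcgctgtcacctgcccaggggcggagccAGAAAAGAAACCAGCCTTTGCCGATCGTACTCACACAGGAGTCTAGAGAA

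**Figure D4:**
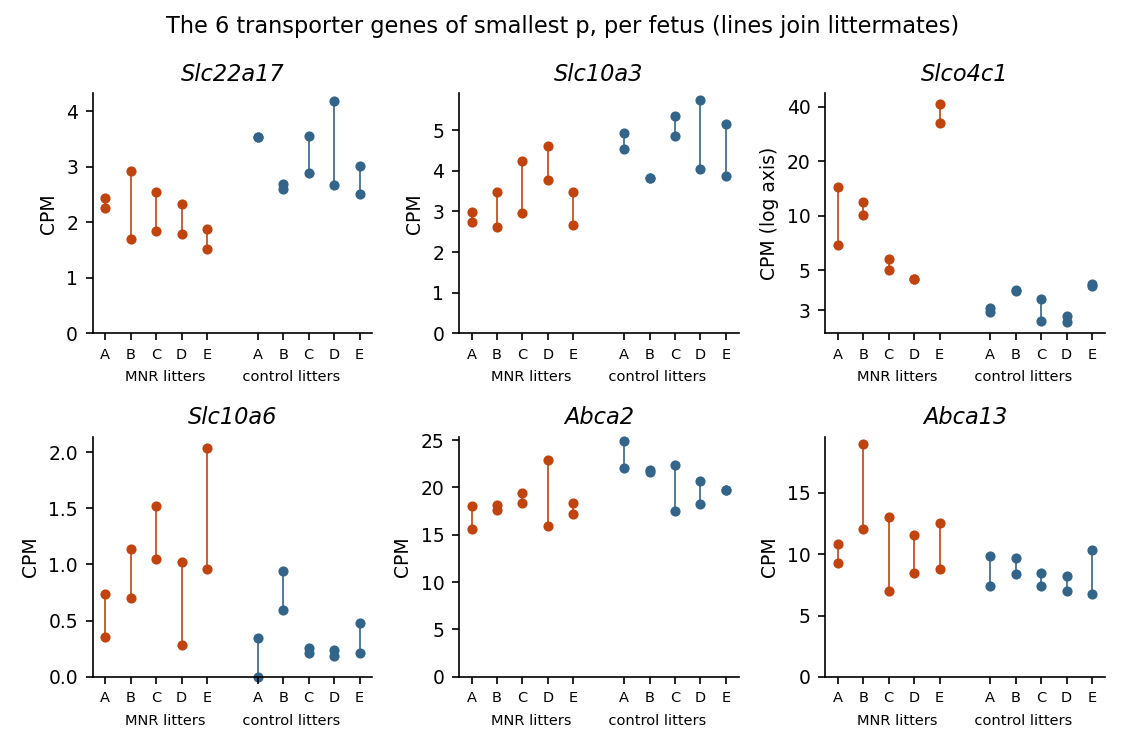
Values in CPM per fetus (vertical axes, a log axis for Slco4c1) are shown for the 6 transporter genes of smallest p, with MNR litters A to E left of control litters A to E and lines joining littermates. Slco4c1 spans 4.45 to 41.3 CPM in MNR fetuses and 2.57 to 4.19 CPM in control fetuses. In the other panels fetuses of the groups overlap.

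Slc22a17 had the smallest p of all members. It encodes a receptor for lipocalin-2, a protein that binds iron-carrying siderophores, and unlike its relatives it is not known chiefly as an organic ion carrier. It had 2.33, 2.24, 2.25, 2.13 and 1.69 CPM in MNR litters A to E, against 3.54, 2.63, 3.20, 3.55 and 2.77 CPM in control litters A to E. All MNR litters were below all control litters, with a fold change of 0.678 (95% interval 0.560 to 0.820). The log2 fold change was -0.56 (SE 0.13), and its adjusted p of 0.0587 missed the threshold in edgeR while that of DESeq2 was 0.00422. DESeq2 called 1163 of 17573 genes, against 117 for edgeR. Over 23 fits in all, the log2 fold change of Slc22a17 stayed between -0.70 and -0.45. Its adjusted p ran from 0.00422 to 0.410 over these fits and was under 0.05 in 4.

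Stellate cell markers, 6 tested with 0 past the threshold, were lower in MNR for 3 at an unadjusted p under 0.05, against 9.69% of all genes. They summed to 377 to 468 CPM in MNR litters and 388 to 507 CPM in control litters, and B cell precursor markers summed to 14.6 to 23.4 CPM in MNR litters and 17.1 to 38.0 CPM in control litters. Of 4 B cell precursor markers tested, 0 passed and 3 were lower at an unadjusted p under 0.05, against the same 9.69%. All 5 megakaryocyte markers were tested and 0 passed, with 4 higher in MNR at an unadjusted p under 0.05 (9.95% of all genes), and they summed to 219.9 to 259 CPM in MNR litters and 201 to 250.0 CPM in control litters. The part of these cell types' markers in the values of Slc22a17 and of the other members with low levels was not tested.

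Among the remaining Slc10a genes tested, Slc10a5 averaged 17.0 ± 2.77 CPM in MNR and 19.7 ± 2.77 CPM in control litters (log2 fold change -0.21, SE 0.12, adjusted p = 0.384), and Slc10a7 averaged 11.1 ± 0.322 CPM in MNR and 11.2 ± 0.797 CPM in control litters (log2 fold change -0.02, SE 0.06, adjusted p = 0.896). Slc10a3 and Slc10a6 had lower levels. Slc10a3, a relative of the bile acid carriers without an established substrate, had 2.85, 3.08, 3.55, 4.06 and 3.07 CPM in MNR litters and 4.69, 3.81, 5.15, 4.79 and 4.53 CPM in control litters. The groups overlapped only through MNR litter D and control litter B. Its log2 fold change was -0.47 (SE 0.12, adjusted p = 0.0736). Slc10a6 (SOAT), a carrier of sulfated steroids, had 0.546, 0.892, 1.32, 0.550 and 1.48 CPM in MNR litters and 0.215, 0.752, 0.235, 0.218 and 0.347 CPM in control litters. Control litter B lay within the MNR range and the other 4 control litters below it. The log2 fold change was 1.47 (SE 0.41, adjusted p = 0.0901). Without control litter B it was 1.92 (adjusted p = 0.0218), in an edgeR fit that called 843 of 17748 genes, against 117 as reported. Over 21 fits its adjusted p ran from 0.0218 to 0.192 and was under 0.05 in 2, and DESeq2 gave none. Counts were low, at 7 to 39 in MNR fetuses and 0 to 16 in control fetuses.

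Among the cation and carnitine carriers, Slc22a5 (OCTN2), which takes up the carnitine needed for fatty acid oxidation, had 8.86, 8.82, 7.59, 8.19 and 8.09 CPM in MNR litters and 7.35, 6.50, 7.53, 7.37 and 8.0 CPM in control litters. MNR was higher by a log2 fold change of 0.18 (SE 0.07, adjusted p = 0.219). It shares an identical coding stretch of 157 bases with its neighbour Slc22a21, so the split of reads between them is uncertain. Slc22a3 (OCT3), a carrier of monoamines, averaged 0.733 ± 0.0910 CPM in MNR and 0.734 ± 0.101 CPM in control litters (log2 fold change -0.00, SE 0.15, adjusted p = 0.994). Slc22a23, an orphan carrier named for an unadjusted p under 0.05, averaged 101 ± 10.3 CPM in MNR and 114 ± 5.40 CPM in control litters (log2 fold change -0.18, SE 0.07, adjusted p = 0.217). Of the 8 cation and carnitine carriers listed, 6 were tested, 0 passed and 1 was higher at an unadjusted p under 0.05. Of 12 organic anion carriers found, 5 were tested, 0 passed and none reached an unadjusted p under 0.05.

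No gene passed among the transporters inside the cell and the soluble relatives. Abcd3 (PMP70), which imports long-chain and branched-chain acyl-CoA and bile acid precursors into peroxisomes, averaged 125 ± 16.7 CPM in MNR and 144 ± 17.6 CPM in control litters (log2 fold change -0.21, SE 0.11, adjusted p = 0.291). Abcd4, known for cobalamin export from lysosomes although listed with the peroxisomal ABC transporters, had 12.4, 9.49, 8.78, 7.27 and 9.94 CPM in MNR litters and 7.11, 7.44, 7.53, 7.09 and 7.70 CPM in control litters. MNR litter D lay among the control litters and the other 4 above them, with a log2 fold change of 0.38 (SE 0.12, adjusted p = 0.116). The fetuses of MNR litter A differed widely, at 8.52 and 16.2 CPM, and the latter was the highest of all fetuses. Of the 4 transporters of that list, 0 passed and 1, Abcd4, had an unadjusted p under 0.05.

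Abcb10 averaged 178 ± 11.0 CPM in MNR and 177 ± 32.1 CPM in control litters (log2 fold change 0.01, SE 0.11, adjusted p = 0.972), and the smallest adjusted p among the 4 mitochondrial ABC transporters was 0.748, for Abcb8 (37.9 ± 1.46 CPM in MNR and 36.7 ± 3.69 CPM in control litters). Abcb9, a lysosomal peptide transporter, averaged 4.90 ± 0.556 CPM in MNR and 5.56 ± 0.929 CPM in control litters (log2 fold change -0.18, SE 0.12, adjusted p = 0.44). The 4 soluble proteins of translation have no membrane part. Of these, Abce1, which splits ribosomes after termination, averaged 83.1 ± 7.69 CPM in MNR and 96.1 ± 10.2 CPM in control litters (log2 fold change -0.21, SE 0.09, adjusted p = 0.206), and Abcf2 averaged 28.4 ± 3.06 CPM in MNR and 33.2 ± 2.75 CPM in control litters (log2 fold change -0.22, SE 0.08, adjusted p = 0.167). Abcf3 averaged 31.7 ± 1.20 CPM in MNR and 31.1 ± 1.59 CPM in control litters (log2 fold change 0.03, SE 0.05, adjusted p = 0.798). None of the 4 passed, and 2 (Abce1 and Abcf2) were lower in MNR at an unadjusted p under 0.05.

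Members differed in how steady they were between litters. The SD between litter means of a group, on the log2 CPM scale, was largest for Slc22a7 at 1.46, Abcg5 at 0.91, Slco4c1 at 0.86 and Abcg8 at 0.78. It was among the smallest for Abcf3 and Abcf1, at 0.07 each. The median over the 72 genes was 0.20 between litter means and 0.19 between littermates. The SD between litters exceeded that between littermates for 37 of the 72 members (51.4%), against 43.0% of all tested genes. An SD between litter means also holds the scatter of the 2 fetuses averaged, and for low counts such as those of Slc22a7 both hold counting error.

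**Figure D5:**
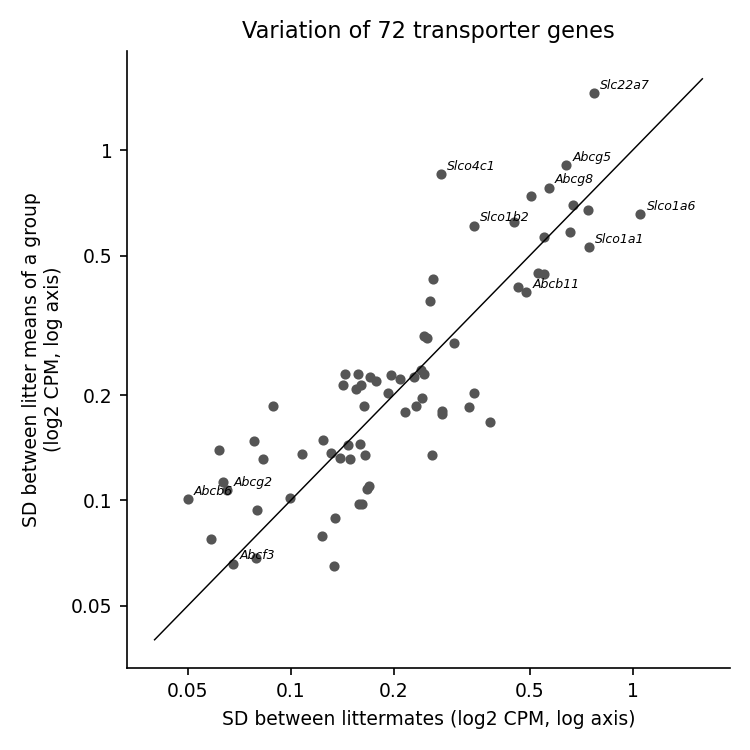
Each point is a tested transporter gene, with the SD between littermates on the horizontal axis and the SD between litter means of a group on the vertical axis, both in log2 CPM on log axes. The line marks equality, and 37 of the 72 genes lie above it. Slc22a7, at 1.46 between litters, is the highest.

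The surrounding bile acid pathway, given from lists of non-member genes, likewise held no gene past the threshold. Of 15 nuclear receptors and partners tested, 5 were higher and 2 lower in MNR at an unadjusted p under 0.05, against 9.95% and 9.69% of all genes. Fgfr4, the hepatocyte receptor for the intestinal signal that restrains bile acid synthesis, averaged 14.0 ± 1.70 CPM in MNR and 17.7 ± 1.09 CPM in control litters (log2 fold change -0.34, SE 0.08, adjusted p = 0.0721), while its co-receptor Klb averaged 66.3 ± 4.60 CPM in MNR and 54.7 ± 5.03 CPM in control litters (log2 fold change 0.28, SE 0.07, adjusted p = 0.08). Rxra, the partner of most of these receptors, averaged 261 ± 9.06 CPM in MNR and 219 ± 18.6 CPM in control litters without overlap (log2 fold change 0.26, SE 0.07, adjusted p = 0.0785).

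Of 15 genes of bile acid synthesis and conjugation, 14 were tested, with 3 higher and 1 lower in MNR at an unadjusted p under 0.05, against the same shares of all genes. Cyp2c70, which makes the muricholic acids of mice, averaged 259.7 ± 42.5 CPM in MNR and 368 ± 54.6 CPM in control litters (log2 fold change -0.50, SE 0.12, adjusted p = 0.0721). Cyp27a1, the sterol 27-hydroxylase of the alternative pathway, averaged 122 ± 11.3 CPM in MNR and 83.0 ± 24.7 CPM in control litters (log2 fold change 0.56, SE 0.17, adjusted p = 0.111). Acox2, a peroxisomal oxidase that shortens bile acid side chains, averaged 224 ± 27.1 CPM in MNR and 181 ± 21.9 CPM in control litters (log2 fold change 0.31, SE 0.10, adjusted p = 0.137). Of 12 other membrane proteins of bile and drug transport, 10 were tested and 1 was lower at an unadjusted p under 0.05. This was Pdzk1, a scaffold that holds several of these carriers in the membrane, at 55.1 ± 3.31 CPM in MNR and 65.3 ± 8.61 CPM in control litters (log2 fold change -0.24, SE 0.08, adjusted p = 0.145).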

How the data were processed

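The authors deposited whole-number transcript counts, not normalised, in 1 table per fetus, and these were used here. Per the submitters' processing notes, the tools were FastQC, Bowtie2, edgeR and DESeq2 and the mouse build was mm9, and per the labels' protocols the library kit preserves strand. The sources used here do not give the counting tool, any tool version, the use of strand or the treatment of reads with several matches. A deposited gene table of the series equalled the summed counts for only 8.52% to 9.66% of genes and was not used. Transcripts were summed to genes with the mm9 annotation (NCBIM37, GENCODE release M1), and transcripts without a gene held 0.0788% to 0.154% of counts. The 90 pairs of fetuses within a group all differed beyond sampling noise, at 9.78 to 79.1 for chi-square divided by its degrees of freedom.

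Littermates' counts were added, genes were filtered with filterByExpr (minimum count 10) and scaled with TMM, and 5 MNR litters were compared with 5 control litters with edgeR 4.0.16 (quasi-likelihood, two-sided) in R 4.3.3, and p-values were adjusted over all tested genes (Benjamini-Hochberg). The depth of 14925778 to 28016953 counts per fetus limits the precision of genes near 1 CPM. DESeq2 1.42.0, limma 3.58.1, other scalings, filters and thresholds, single fetuses, the litter letter as a block, an erythroid covariate, protein-coding transcripts alone and leaving out each litter were the alternatives. Leaving out the 3 fetuses of highest pancreatic marker level was chosen after seeing the data. Log2 CPM used a prior count of 2.

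The members and gene lists were chosen with earlier results of these data known. Genes named with full values were a set of bile, drug and sterol transporters, the 5 members of highest level per kilobase, the tested member of smallest p in each direction of each family, and up to 3 genes of smallest p in each list of non-members. Values of 2 tested members are not reported here, although both stay in the counts. Members with an unadjusted p under 0.05 were added after their values were seen. The litter letters were checked as a pairing and were not taken as pairs, as given in the closing part.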

Additional observations from a re-analysis of the deposited data

Results flagged for a closer look

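A litter that stood apart from the other 4 of its group, by Dixon's test at the 95% level, was found in 6 of 74 groups of litters tested, 2 for each of 37 genes. For independent, normally distributed values chance gives about 1 in 20 such groups. The groups share the same litters and CPM was not transformed, so that rate is only a rough guide here. In MNR these were Slco4c1, where litter E had 37.0 CPM and the others 4.45 to 11.0 CPM, and Abca13, where litter B had 15.7 CPM and the others 9.56 to 10.6 CPM. In control litter B, Abcc3 had 38.1 CPM, against 23.6 to 27.6 CPM in the other control litters, and Slc10a6 had 0.752 CPM, against 0.215 to 0.347 CPM. In control litter C, Slco2b1 had 2.42 CPM, against 0.973 to 1.37 CPM in the others. Abcf3 was low in control litter A, at 28.3 CPM, with 31.3 to 32.4 CPM in the other control litters.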

How the results depend on the processing

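With 117 genes past the threshold in the fit reported, alternatives gave 1088 (limma-voom on fetuses), 1163 (DESeq2), 875 (adjusted p of 0.1), 499 (fetus 2 of each litter), 0 (edgeR on fetus 1 of each litter, with 1699 at an unadjusted p under 0.05), 178 (upper-quartile scaling), 232 (litter letter as a replicate block) and 215 (without the 3 fetuses of highest pancreatic marker level), and 0 to 843 when a litter was left out. Under upper-quartile scaling 38.2% of the calls were higher in MNR, against 62.4%. The count of transporter genes, 0 of 72 as reported, was 5 of 67 with limma-voom (all genes 1088 of 16136) and 6 of 72 with DESeq2 (1163 of 17573). At an adjusted p of 0.1 it was 5 of 72 (all genes 875 of 17573), and with fetus 2 of each litter 3 of 67 (499 of 16182). It was 0 to 3 when a litter was left out. Without MNR litter D 3 of 72 were called (all genes 512 of 17697), and without control litter B 3 of 72 (843 of 17748). It was 0 under the other scalings and filters, with fetus 1 alone, with the block, with the erythroid covariate and without the 3 fetuses. At fetus 1 of each litter, 6 members had an unadjusted p under 0.05.

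The litter letters were not taken as pairs, since the dams differ and not every correlation of same-lettered litters exceeded 0.1. What was correlated over the tested genes was each litter's deviation from its group's mean log2 CPM, and not the levels themselves. Same-lettered litters correlated at 0.0259 (A), 0.184 (B), 0.148 (C), 0.16 (D) and -0.00928 (E), and only B and D correlated best with their own letter. With the replicate block the median log2 fold change of members was 0.01 and 0 members passed, while the adjusted p was 0.146 for Abcg5 and 0.164 for Abcg8 (0.627 and 0.471 without it).

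Direction turned for the members named here, none of which passed the threshold (log2 fold changes), and the cause was not tested. Abcb10 (0.00983 as reported) was -0.0200 with upper-quartile scaling, -0.00187 without the 3 fetuses and -0.0363 to 0.111 with a litter left out. Abcb1b (0.000627 as reported) was -0.00288 in limma-voom, -0.0537 with fetus 1, -0.000170 in DESeq2, -0.0308 with upper-quartile scaling, -0.00132 at a minimum count of 50, -0.0179 with the replicate block, -0.108 with the erythroid covariate and -0.124 to 0.115 with a litter left out. Abcb4 (-0.0716 as reported) was -0.143 to 0.0199 with a litter left out. Abcf3 (0.0289 as reported) was -0.000996 with upper-quartile scaling and -0.00268 to 0.0491 with a litter left out. Abcg1 (-0.0418 as reported) was 0.0273 with fetus 1. Abcg2 (-0.00341 as reported) was 0.00847 in limma-voom, 0.0508 with fetus 1, 0.00104 without a filter, 0.0117 with the erythroid covariate and -0.0468 to 0.0345 with a litter left out. Slc10a1 (0.0984 as reported) was -0.000183 to 0.161 with a litter left out. Slc22a3 (-0.00286 as reported) was 0.00101 in limma-voom, 0.183 with fetus 2, 0.00225 without a filter, 0.0377 with the erythroid covariate, 0.0168 without the 3 fetuses and -0.0810 to 0.0505 with a litter left out. Slc22a7 (-0.0812 as reported) was 0.129 in limma-voom, 0.101 with fetus 2, 0.147 without the 3 fetuses and -0.576 to 0.651 with a litter left out. Slco1a1 (-0.260 as reported) was 0.0586 with fetus 2. Slc10a7, below 0 as reported, ran from -0.108 to 0.0848 over 23 fits and was above 0 in 2 of them.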
